A study of Arabidopsis thaliana with 10 samples.

Results

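Solvent-treated control seedlings of Arabidopsis thaliana sampled at 4 h were compared with those sampled at 0 h. The 4 arrays, 2 per time, were chosen by their labels as control and by their time, out of 10 arrays in the series. Each array measured total RNA of whole seedlings on the Affymetrix ATH1 microarray, and the deposited value of a probe set, a group of short probes for a transcript, is a signal intensity on a linear scale. By its title, the series is about genes controlled by AtGLK1, a transcription factor of chloroplast development.

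All seedlings had the Col-0 background and were labelled Atglk1;Atglk2 with a transposon knock out, so controls and treated plants share this mutant genotype. The labels name no transgene. The control groups at 0 h, 4 h and 24 h received DMSO, and the 2 groups set beside them, at 4 h and 24 h, received dexamethasone, an animal steroid analogue with which fusion proteins can be activated in plants. Seedlings grew for 10 days on plates with 1.5% sucrose and 20 ug/ml hygromycin B and then for 48 h in shaken liquid medium, at about 100 seedlings per flask. Light lasted 16 h a day, at 85 umol/m2/s, and the temperature was 20 C. The clock time of harvest is not given in the sources used here. A sample at 4 h differs from one at 0 h in the time of day and in the time since treatment began, and these cannot be told apart. The labels do not say that the replicates of a group were separate cultures, so the spread behind the p-values may be technical, and they speak of these samples alone.

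Many plant transcripts follow the day, because a circadian clock of mutually repressing transcription factors and the light itself set when they are made. Chloroplast functions are among those so timed, including the making of chlorophyll, the light reactions and the storage of starch by day and its breakdown by night. COR27 and its relative COR28 are small nuclear proteins, induced by cold and light, that act on clock genes and on flowering time. COR27 came with the comparison as its marker, so its level is given as a description of the sampling.

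Over the 10 arrays the median signal lay between 33.9 and 35.9, and the replicates correlated with r from 0.975 to 0.985 over all probe sets on the log2 scale. The first principal component (31.3% of variance) split the arrays at 4 h, whatever their treatment, from the rest. The second, 23.4%, set apart replicate 1 of the control at 24 h and replicate 2 of dexamethasone at 4 h, neither of which is a 4 h or 0 h control. RCA, rubisco activase of green tissue, had 4303 and 5593 at 0 h and 4485 and 5575 at 4 h, and the root hair expansin gene EXPA7 had 57.2 and 46.4 and then 32.1 and 37.8, so transcripts of both shoot and root were present. Of the 3 shoot markers tested 1 fell, LHCB4.2, at a log2 change of -0.84, and RCA (0.03) and LHCB4.1 (-0.03) did not pass the test below. Neither did the 2 root markers tested, EXPA7 (-0.51) and EXPA18 (-0.14). In that test 1.52% of all probe sets fell. The sign of RCA turned under quantile normalization, to -0.21, and those of RCA and LHCB4.1 also turned with single arrays left out. In whole seedlings, fewer cells of a type and less RNA per cell cannot be told apart.

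Between 0 h and 4 h, transcripts of COR27, COR28 and COR15B and single genes of starch phosphorylation (PWD) and chlorophyll synthesis (PORB) were among those that rose. Transcripts of a light-harvesting antenna protein, a chalcone synthase-degrading F-box protein and a cryptochrome inhibitor were among those that fell. So were those of the carbonyl-reducing enzyme AOR and the transporter NPF6.4. Of these falls, the call of AOR alone held under all 20 alternatives tried. The antenna and F-box calls were lost whichever of the 4 compared arrays was left out. Of 14575 probe sets tested, 383 passed, which is 2.63%, with limma at an adjusted p below 0.05. Of these, 161 rose (1.10%) and 222 fell (1.52%). The risers had a median log2 change of 0.83 and a range from 0.43 to 4.29, and 48 exceeded 1. The median of those that fell was -0.91, their sizes ran from 0.46 to 3.48, and 97 exceeded 1. For comparison, the median over all probe sets tested was -0.0041. On all 383 the 2 arrays of one time lay on one side of both arrays of the other, which also held for 44.5% of all probe sets tested. The lack of overlap therefore adds no support to the call of a single gene.

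The 161 that rose included 73 probe sets of a single named gene (72 genes), 2 of several genes and 86 with no gene in the annotation used here. The 222 that fell included 97 of a single named gene (96 genes) and 125 with none. The functions described here cover the named ones only. The probe sets without a name included the extremes. The probe set 249850_at rose by 4.29 and 257985_at by 3.73 on the log2 scale, while 248910_at and 250665_at fell by 3.48 and 3.18. The calls of 44 rises and 50 falls held with each of the 4 compared arrays left out in turn.

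**Figure D1:**
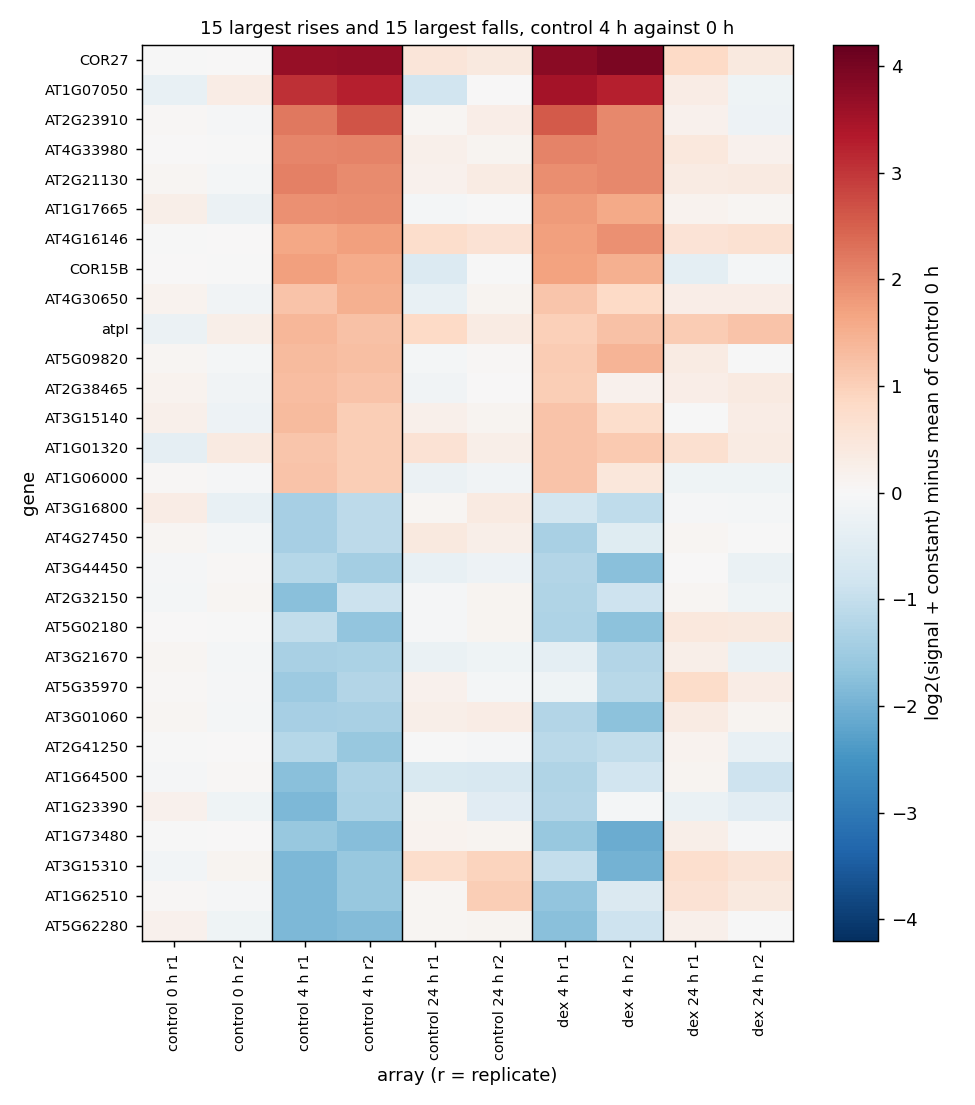
Heat map of the 15 largest rises (top) and 15 largest falls (bottom) among named genes that passed, on all 10 arrays. Colour is log2(signal + constant) minus the mean of the 2 control arrays at 0 h; COR27 rose by 3.67 and AT5G62280 fell by 1.86, and columns at 24 h lie near 0 for most genes.

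The rises of COR27, COR28 and a CCT motif protein were among the 4 largest of named genes. COR27 (AT5G42900) had a signal of 4.51 and 4.89 on the arrays at 0 h and 109 and 112 at 4 h (log2 change 3.67, SE 0.21, limma adjusted p = 5.5e-06). Its close relative COR28 (AT4G33980) had 13.05 and 12.6 at 0 h and 67.1 and 68.98 at 4 h (log2 change 2.07, SE 0.19, limma adjusted p = 1.9e-04). AT1G07050, a protein with the CCT motif found in CONSTANS and in clock proteins, had 7.95 and 14.6 and then 124 and 143 (log2 change 3.17, SE 0.30, limma adjusted p = 2.3e-04). All 3 genes were low on both arrays at 0 h and high on both at 4 h. At 0 h all 3 lay below percentile 40 of their arrays (20.2 and 20.1), and the table has no detection calls, so their level there is not separable from background and the size of the rise is uncertain. At 24 h, the same clock time as 0 h, COR27 had 8.59 and 7.77, COR28 15.6 and 14.1 and AT1G07050 4.35 and 11.1, each again below the levels at 4 h. These calls held under all 20 alternatives.

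Of 3 tested members of the afternoon and evening list, the marker COR27 and COR28 rose, while 1.10% of all probe sets tested rose. GI (AT1G22770), GIGANTEA, is a partner of the blue light receptors that time flowering. It had 178 and 179 at 0 h and 158 and 147 at 4 h. Its log2 change of -0.22 did not pass (limma adjusted p = 0.593). In dexamethasone it was lower at 4 h than at 24 h, by a log2 difference of -0.76 that passed (limma adjusted p = 0.0239). Neither of the 2 morning genes tested passed. Among 30 members of a list of transcription factors 0 passed in limma, with 3 at an unadjusted p below 0.05. Among 36 of F-box proteins and ubiquitin ligases 0 passed and 3 had such a p. For scale, 2.63% of all 14575 probe sets tested passed and 1983 had such a p. These lists do not hold every such gene. HAT2, an HD-Zip factor, and AT1G23390, an F-box protein, were in separate lists, and both passed, as given below. HYH, a light-signalling bZIP factor related to HY5, had a log2 change of -0.28 and did not pass.

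Genes for low temperature and dehydration had 2 rises, COR15B and the marker COR27, and no fall among 9 tested members. Of all probe sets tested, 1.10% rose and 1.52% fell. COR15B (AT2G42530), a chloroplast protein that protects membranes on freezing, had 22.04 and 21.00 at 0 h and 80.8 and 71.9 at 4 h (log2 change 1.64, SE 0.22, limma adjusted p = 0.00229). COR27 came with the comparison, so COR15B was the only rise in this list beside the marker. COR15A (AT2G42540), its neighbour of like function, had 18.9 and 3.00 and then 31.2 and 30.1, the values at 0 h below percentile 40, and its log2 change of 1.42 did not pass (limma adjusted p = 0.234). COR47 and LTI30, dehydrins of the same response, had log2 changes of -0.01 and -0.08 and did not pass, and the sign of COR47 depended on which array was left out. The median over the 9 was 0.21.

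AT4G30650, a small membrane protein of the RCI2 kind that salt and cold induce, had 498 and 404 at 0 h and 1041 and 1272 at 4 h (log2 change 1.35, SE 0.17, limma adjusted p = 0.00143). Its neighbour AT4G30660 had 557 and 469 and then 709 and 712, a log2 change of 0.47 that did not pass (limma adjusted p = 0.0943). Of 3 such genes tested, 1 rose and all 3 had a positive change, in a list written after the called genes had been seen. The share of all probe sets tested that rose was 1.10%.

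**Figure D2:**
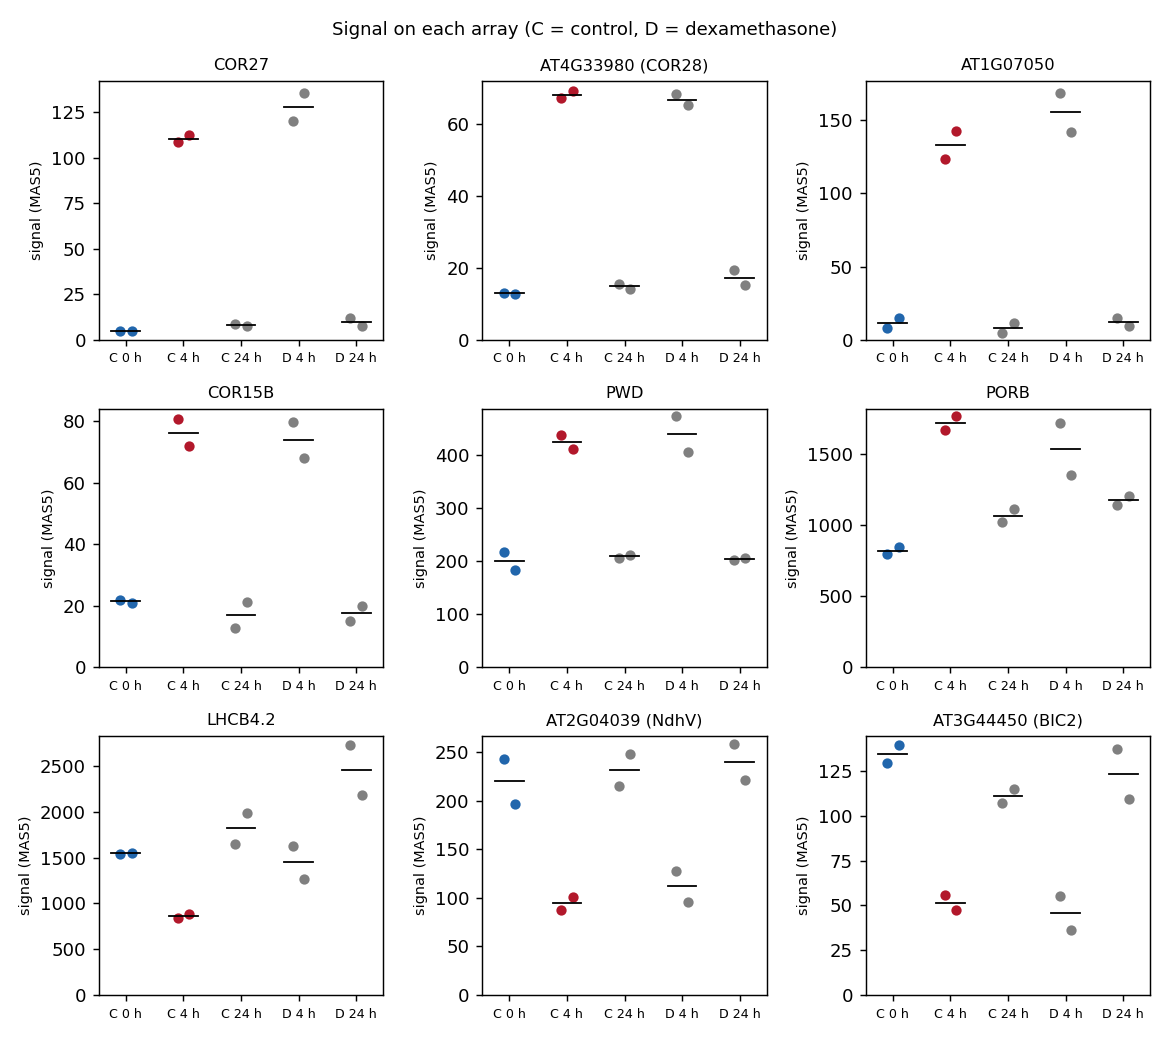
Signal (MAS5, linear) of 9 genes on each of the 10 arrays; C is control and D is dexamethasone, points are arrays and lines group means. The genes high at 4 h (COR27, COR28, AT1G07050, COR15B and PWD) lay near the 0 h level at 24 h, and PORB lay between, at a mean of 1064 in the control at 24 h.

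The starch list had 1 rise among 5 tested genes, where 1.10% of all probe sets tested rose. The list of chlorophyll and tetrapyrrole synthesis had 1 among 3, the other 2 of which had a negative change that did not pass. PWD (AT5G26570), phosphoglucan water dikinase, which phosphorylates starch so that it can be degraded, had 217 and 184 at 0 h and 439 and 411 at 4 h (log2 change 1.07, SE 0.12, limma adjusted p = 7.7e-04). No other starch gene passed: DPE1, the plastid disproportionating enzyme, had a log2 change of 0.45 (limma adjusted p = 0.135) and the branching enzyme SBE2.2 one of -0.56 (limma adjusted p = 0.117), and neither passed. PORB (AT4G27440), protochlorophyllide oxidoreductase B, the light-dependent step of chlorophyll synthesis, had 792 and 844 at 0 h and 1669 and 1767 at 4 h (log2 change 1.07, SE 0.12, limma adjusted p = 7.7e-04). The calls for PWD and PORB held under all 20 alternatives.

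Other rises with a chloroplast or a metabolic role followed. AT5G09820, a plastid fibrillin, had 57.1 and 49.9 and then 140.3 and 133 (log2 change 1.29, SE 0.17, limma adjusted p = 0.00185). CHL (AT3G47860), the chloroplast lipocalin that protects thylakoid lipids, had 343 and 384 and then 641 and 692 (log2 change 0.87, SE 0.11, limma adjusted p = 0.0011). Their calls held under all 20 alternatives. THIC (AT2G29630), which makes the pyrimidine part of thiamin, had 238 and 319 and then 566 and 580.5 (log2 change 1.04, SE 0.16, limma adjusted p = 0.00561), and its call was lost when replicate 1 at 0 h or either array at 4 h was left out. Of 2 thiamin genes tested, THIC was the one that rose, in a list written after the called genes had been seen. Among all probe sets tested 1.10% rose. AT1G06000, a flavonol 7-O-rhamnosyltransferase, had 99.6 and 92.9 and then 227 and 199 (log2 change 1.11, SE 0.20, limma adjusted p = 0.0114), lost without each of the 4 compared arrays. The chalcone isomerase-like gene CHIL had a log2 change of 0.84 and did not pass (limma adjusted p = 0.145).

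AT2G21130, a cytosolic cyclophilin, a peptidyl-prolyl isomerase that folds proteins, had 94.7 and 84.7 at 0 h and 399 and 369 at 4 h (log2 change 2.05, SE 0.12, limma adjusted p = 5.5e-06), the smallest adjusted p beside COR27 among the named genes. AT4G16146, related to a phosphoprotein that inhibits a phosphatase in animals, had 112 and 112 and then 359 and 381 (log2 change 1.68, SE 0.12, limma adjusted p = 2.0e-05). AT2G23910, a cinnamoyl-CoA reductase-like protein, had 12.5 and 11.1, both below percentile 40, and then 71.1 and 95.2 (log2 change 2.43, SE 0.25, limma adjusted p = 3.7e-04). Each of these calls held under all 20 alternatives. AT5G39410, annotated as a saccharopine dehydrogenase, rose by 1.08 and also held under all of them. AT2G43530, a small cysteine-rich protein of the defensin kind, rose by 0.77 with the same record. The remaining large rises were AT1G17665 at 1.93, AT2G38465 at 1.24, AT3G15140, an exonuclease-like protein, at 1.19 and AT1G01320 at 1.11 on the dimmer of its 2 probe sets. The values of AT1G17665 and AT3G15140 at 0 h lay below percentile 40. Of these 4, the call for AT1G17665 held with each compared array left out, those for AT2G38465 and AT3G15140 were lost with each, and that for AT1G01320 was lost with all but replicate 2 at 0 h.

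The REC genes, which set how much of a cell the chloroplasts fill, had 3 rises among 4 probe sets tested, of 3 genes. Both probe sets of AT1G01320 were among the rises. The list was written after the called genes had been seen, so a hit in it was set by that choice. Over all probe sets tested, 1.10% rose. AT1G01320 (REC1) had 332 and 406 at 0 h and 534 and 602 at 4 h on its brighter probe set (log2 change 0.62, SE 0.13, limma adjusted p = 0.0268). AT4G28080 (REC2) had 250.1 and 264 and then 386 and 492 (log2 change 0.75, SE 0.13, limma adjusted p = 0.0102), and AT1G15290 (REC3) had a log2 change of 0.42 and did not pass. All 4 changes were positive, but the calls rested on few arrays: 0 remained without replicate 1 at 0 h, 2 without replicate 2 at 0 h, 1 without replicate 1 at 4 h and 0 without replicate 2 at 4 h.

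Of 13 serine carboxypeptidases, secreted or vacuolar proteases and acyltransferases, 2 rose and 0 fell: SCPL49 by 0.85 (SE 0.13) and scpl35 by 0.81 (SE 0.12). Both were lost without replicate 1 at 4 h. Of 3 CTP synthases, which make the pyrimidine nucleotide CTP, AT1G30820 rose by 0.70. TUB9, a beta-tubulin, rose by 0.52 and was 1 of 5 tubulins tested. In the family of FCS-like zinc finger proteins, AT1G78020 was the 1 of 10 that rose, by 0.95. These calls for AT1G30820, TUB9 and AT1G78020 were lost whichever of the 4 compared arrays was left out. All lists in this paragraph were written after the called genes had been seen, so each holds a call by choice. Over all probe sets tested, 1.10% rose and 1.52% fell.

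The NDH complex of the chloroplast returns electrons from ferredoxin to the plastoquinone pool. A list of its nuclear genes and assembly factors had 3 rises and 1 fall among 10 tested. It was written after the called genes had been seen, so a hit in it was set by choice. Over all probe sets tested, 1.10% rose and 1.52% fell. NdhN (AT5G58260), a subunit, had 148 and 155 at 0 h and 264 and 289.8 at 4 h (log2 change 0.85, SE 0.12, limma adjusted p = 0.00319). Cpn60beta4 (AT1G26230), a chaperonin subunit needed to fold NdhH, rose by 0.83 (SE 0.16), and CRR42, an assembly factor, by 0.64 (SE 0.14). AT2G04039 (NdhV), which helps bind ferredoxin, went the other way, with 243 and 197 at 0 h and 87.7 and 101 at 4 h (log2 change -1.18, SE 0.17, limma adjusted p = 0.00315). Of the 10 genes, 8 had a positive change, as had 7189 of all 14575 probe sets, and the median was 0.53. CRR21, an editing factor, had a log2 change of 0.61 and the subunit NdhL one of 0.43, and neither passed. With single arrays left out, the 4 calls fell to 2 without either array at 0 h and to 1 without either array at 4 h. NdhN was lost without replicate 2 at 4 h and AT2G04039 without replicate 1 at 4 h.

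A list matched on names linked to organelle RNA editing and processing had 2 rises and no fall among 13 tested. It too was written after the called genes had been seen. Over all probe sets tested, 1.10% rose. OTP81 (AT2G29760), a pentatricopeptide protein of chloroplast RNA editing, had 26.6 and 21.6 at 0 h and 53.9 and 45.5 at 4 h (log2 change 0.93, SE 0.18, limma adjusted p = 0.0186), and the other was CRR42, the NDH assembly factor counted above, which its name placed in the list. Of the 13, 12 had a positive change, with a median of 0.34, where 7189 of all 14575 probe sets had a positive change. No call remained with any of the 4 compared arrays left out.

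Genes of the plastid genome encode core subunits of the photosystems, the ATP synthase and the plastid ribosome. Of their 69 annotated probe sets 67 were tested. Of these, 11 rose, 0 fell and 65 had a positive change, with a median of 0.51, and the number that rose moved between 0 and 26 with the array left out. Over all probe sets tested, 1.10% rose. A positive change was found for 7189 of all 14575 probe sets. Among the 11 that rose, ATP synthase genes were atpI, with 25.2 and 37.3 at 0 h and 87.8 and 77.8 at 4 h (log2 change 1.31, SE 0.21, limma adjusted p = 0.00607), atpF at 0.67 and atpE at 0.54. Ribosomal genes were rps15 (0.74), rpl16 (0.70), rpl33 (0.66), rps16 (0.66) and rpl22 (0.58). The others were ycf3, an assembly factor of photosystem I, at 0.91, psbH of photosystem II at 0.80 and ccsA of cytochrome c assembly at 0.63. The photosystem I reaction centre gene psaA had 127 and 402 at 0 h and 689 and 617 at 4 h, a change of 1.51 that did not pass (limma adjusted p = 0.0634), and its replicates at 0 h differed widely.

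By role, the medians of the plastid genes ran from 0.33 to 0.70. The median log2 change was 0.70 over 6 ATP synthase genes, 0.63 over 15 of photosystem II, 0.53 over 5 of photosystem I, 0.46 over 9 of the NDH complex, 0.44 over 6 of cytochrome b6f and 0.33 over 4 of the RNA polymerase. The 7 large ribosomal subunit genes had 0.43 and the 7 small subunit genes 0.51. The rises were thus spread over ATP synthase, photosystem II, ribosomal and other genes.

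The array at 0 h replicate 1 was the lowest in these genes. Their median of log2(signal + constant) was 9.28 and 9.75 on the arrays at 0 h, 10.24 and 10.20 at 4 h, and 10.02 and 9.94 at 24 h in the controls. In dexamethasone it was 10.03 and 10.16 at 4 h and 10.20 and 10.21 at 24 h. Both arrays at 0 h lay below all 8 others. Without replicate 1 at 0 h, 0 of the 67 passed in limma, without replicate 2 at 0 h 26 did, and without either array at 4 h 1 did. Without both arrays that stood apart 21 passed, with no filter 3, and without the trend 1. The median change in dexamethasone was -0.05, and 0 passed there, but the difference between the treatments passed for none (smallest limma adjusted p = 0.971). What set the level on the arrays at 0 h was not tested.

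**Figure D3:**
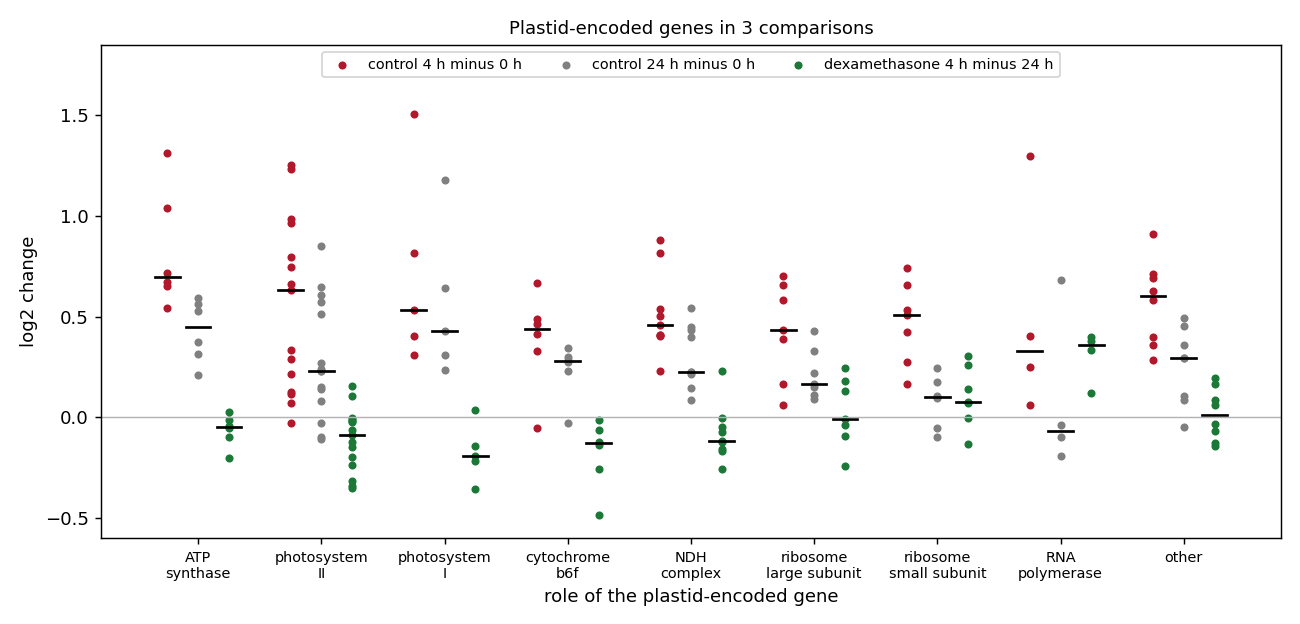
Log2 change of the 67 tested plastid-encoded genes by role in 3 comparisons; points are probe sets and lines medians. Control at 4 h minus 0 h has a median of 0.51 and control at 24 h minus 0 h, which shares the arrays at 0 h, 0.24, while dexamethasone at 4 h minus 24 h has -0.05.

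**Figure D4:**
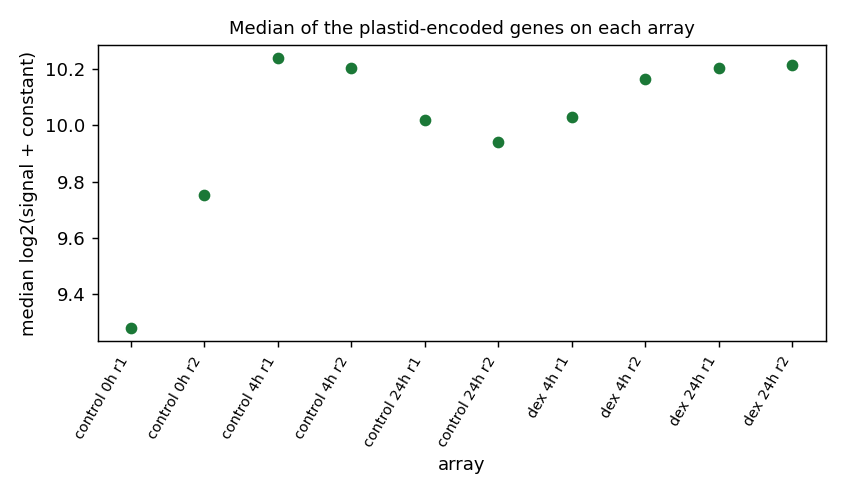
Median of log2(signal + constant) over the plastid-encoded genes on each of the 10 arrays; the axis does not start at 0. The 2 control arrays at 0 h, at 9.28 and 9.75, lie below the other 8.

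Among the falls, those of the light reactions included an antenna protein. LHCB4.2 (AT3G08940), CP29 of the photosystem II antenna, had 1538 and 1556 at 0 h and 837 and 888 at 4 h (log2 change -0.84, SE 0.15, limma adjusted p = 0.0115). The call for LHCB4.2 was lost whichever of the 4 compared arrays was left out. Its relative LHCB4.1 had 2649 and 3191 and then 2679 and 3043, and LHCB4.3 had a log2 change of 0.44, and neither passed. PGRL1B (AT4G11960), a protein of cyclic electron flow around photosystem I, fell by 0.67 (SE 0.15, limma adjusted p = 0.0352). These were the 2 falls, with 0 rises, among 6 genes of photosystems and cyclic flow. That list was written after the called genes had been seen, and of all probe sets tested 1.52% fell. Both falls were among the calls lost without each compared array.

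AT4G17840 (BCM2), one of a pair of thylakoid proteins that balance chlorophyll synthesis and breakdown, had 119.8 and 119.7 at 0 h and 59.99 and 61.3 at 4 h (log2 change -0.93, SE 0.16, limma adjusted p = 0.0115). Its partner AT2G35260 (BCM1) had a log2 change of -0.16 and did not pass. AT5G61670 (ORANGE), a chaperone of carotenoid synthesis, fell by 0.65 (SE 0.13). Both were lost without each of the 4 compared arrays.

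AT3G44450 and AT1G23390, linked to blue light and to flavonoids, and HAT2 are given as single genes that fell. Their small lists were written after the called genes had been seen, so each holds a call by choice. The light signalling list had 0 of 2 passing in limma and 0 with an unadjusted p below 0.05. The flavonoid and phenylpropanoid list had 0 of 4 and 1, with a median of 0.41. Such a p was found for 1983 of all 14575 probe sets. The flavonoid list does not hold every such gene. AT1G06000, the flavonol rhamnosyltransferase that rose, is not in it. AT3G44450 (BIC2), which blocks cryptochromes, the blue light receptors, had 129 and 139 at 0 h and 55.7 and 47.4 at 4 h (log2 change -1.31, SE 0.19, limma adjusted p = 0.00316), lost without replicate 2 at 4 h. BIC1 (AT3G52740) had a log2 change of -0.28 and did not pass. AT1G23390, a kelch F-box protein that targets chalcone synthase for degradation, had 652 and 515 and then 153 and 226 (log2 change -1.62, SE 0.32, limma adjusted p = 0.0205), lost without each of the 4 compared arrays. HAT2 (AT5G47370), an auxin-induced HD-Zip factor of the shade response, had 125 and 117 and then 69.1 and 57.6 (log2 change -0.89, SE 0.14, limma adjusted p = 0.00449). The call for HAT2 was lost without replicate 1 at 0 h or replicate 2 at 4 h.

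Several enzymes were among the falls that held under all 20 alternatives, and they were picked for that after their values were seen. AOR (AT1G23740), the chloroplast alkenal/one oxidoreductase that removes reactive carbonyls, had 732 and 608 at 0 h and 306 and 254 at 4 h (log2 change -1.25, SE 0.16, limma adjusted p = 0.00145). AT4G13010, the quinone oxidoreductase homologue of the chloroplast envelope, had 447 and 479 and then 228 and 230.3 (log2 change -1.0009, SE 0.10, limma adjusted p = 3.8e-04). CYP71B26 (AT3G26290), the 1 of 13 tested cytochromes P450 that fell, had 454 and 450.5 and then 217 and 221 (log2 change -1.03, SE 0.11, limma adjusted p = 5.9e-04). The list of cytochromes P450 was written after the called genes had been seen, and 1.52% of all probe sets tested fell. AT2G34460, a Rossmann-fold NAD(P)-binding protein, fell by 1.01, and AT1G73480, an alpha/beta-hydrolase, by 1.68. AAH, allantoate amidohydrolase of purine breakdown, fell by 0.91 (SE 0.13), and its call was lost in 1 of the 4 fits without a compared array. The detoxification list of UDP-glycosyltransferases and glutathione S-transferases had 0 of 34 passing in limma, and 5 with an unadjusted p below 0.05. Such a p was found for 1983 of all 14575 probe sets. The detoxification list does not hold every sugar-transferring enzyme. AT1G06000, the flavonol rhamnosyltransferase given above, is not in it and rose by 1.11.

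A cluster of tropinone reductase-like genes, short-chain dehydrogenases on one chromosome, had 1 rise and 2 falls among 9 tested. As this list was also written after the called genes had been seen, a hit in it was set by choice. Over all probe sets tested, 1.10% rose and 1.52% fell. AT2G29290 had 419 and 439 at 0 h and 214 and 235 at 4 h (log2 change -0.92, SE 0.11, limma adjusted p = 8.6e-04), held under all 20 alternatives. AT2G29360 fell by 0.74 and AT2G29260 rose by 0.92, each lost whichever compared array was left out. Near-identical neighbours may share signal on such probe sets.

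Transport and cell wall lists had at most 1 fall each. For scale, 1.52% of all 14575 probe sets tested fell, and 1983 had an unadjusted p below 0.05. No member passed in limma of 7 tested in a list of sugar and amino acid transport, where 3 had an unadjusted p below 0.05, of 1 aquaporin, which had such a p, or of 4 genes of pectin and other wall polymers, where 0 had. AT3G21670 (NPF6.4), of the nitrate and peptide transporter family, had 160.2 and 141 at 0 h and 55.5 and 57.3 at 4 h (log2 change -1.35, SE 0.24, limma adjusted p = 0.0119), the 1 of 6 tested that fell. SFP2 (AT5G27360), an ERD6-like sugar transporter, had 54.5 and 66.96 and then 25.1 and 25.3 (log2 change -1.13, SE 0.19, limma adjusted p = 0.00798), 1 of 7. AT1G19450 of that family had a log2 change of -0.94 and missed the threshold (limma adjusted p = 0.0586). AT5G02180, an amino acid transporter that those lists do not hold, had 38.01 and 37.5 and then 16.04 and 9.11 (log2 change -1.35, SE 0.25, limma adjusted p = 0.014), both arrays at 4 h below percentile 40. EXPA8 (AT2G40610), a wall-loosening expansin, had 116 and 141 and then 46.2 and 66.03 (log2 change -1.15, SE 0.23, limma adjusted p = 0.0236), the 1 of 21 expansins and xyloglucan enzymes that fell, while EXPA20 had a log2 change of 0.74 and did not pass. Each call of the 4 genes that passed was lost in 3 or 4 of the 4 fits without a compared array. The lists that hold NPF6.4 and SFP2 were written after the called genes had been seen.

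The family of aluminium-induced proteins had 2 falls among 5, in a list written after the called genes had been seen. Over all probe sets tested, 1.52% fell. AT4G27450 had 134 and 121 at 0 h and 45.5 and 56.6 at 4 h (log2 change -1.26, SE 0.23, limma adjusted p = 0.0136), and AILP1 fell by 0.53 (SE 0.11). Its relative AT3G15450 had a log2 change of -1.01 and did not pass (limma adjusted p = 0.17). With any 1 of the 4 compared arrays left out, 0 of the family passed.

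Among other genes with the 15 largest falls, AT5G62280, of a conserved family of unknown role, had 153 and 121 and then 33.7 and 35.3 (log2 change -1.86, SE 0.24, limma adjusted p = 0.00145), held under all 20 alternatives. AT1G62510, a lipid transfer-like protein, had 267 and 250.4 and then 67.2 and 82.01 (log2 change -1.74, SE 0.32, limma adjusted p = 0.0143). AT3G15310 was below percentile 40 at both times, so its change of -1.74 is not read. AT1G64500, a glutaredoxin-like protein, fell by 1.52, AT2G41250 by 1.39 and AT2G32150 by 1.32, both HAD-type hydrolases. AT3G16800, a type PP2C phosphatase, fell by 1.25, AT3G01060 by 1.37 and AT5G35970, a helicase-like protein, by 1.37. Both arrays of AT1G64500 at 4 h, and 1 of AT3G16800, lay below percentile 40. Of these, AT2G41250 and AT3G01060 held under all 20 alternatives, while AT1G62510, AT3G15310, AT1G64500 and AT5G35970 were lost with each compared array left out and AT2G32150 and AT3G16800 with 3 of the 4. Calls that also held under all 20 alternatives were those of AT3G17800, AT5G12050, AT1G73750 and AT2G30600, which fell by 1.04, 1.07, 1.07 and, on the brighter of 2 probe sets, 1.13.

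Dexamethasone samples at 4 h and 24 h share no array with this comparison, and 24 h falls at the clock time of 0 h. Both comparisons come from 1 fit over all arrays, so they share the estimate of spread of each probe set, and the counts that passed in both are not from separate tests. In dexamethasone, 381 of 14575 probe sets passed (2.61%), 183 higher (1.26%) and 198 lower (1.36%). Of the 383 that passed in the controls, 368 (96.1%) had the same sign in dexamethasone, against 62.2% of all probe sets tested. A set of 230 passed in both in one direction, 104 higher at 4 h and 126 lower at 4 h. This set is 60.1% of the control calls and 60.4% of the dexamethasone calls. For the control rises the median was 0.83 in the controls and 0.76 in dexamethasone, and for the falls -0.91 and -0.73. In dexamethasone, COR27 was higher at 4 h than at 24 h by 3.25 (SE 0.21), AT1G07050 by 3.31 (SE 0.30) and PWD by 1.09 (SE 0.12).

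The difference between the control and dexamethasone changes was tested for each probe set, and 0 passed in limma (0%; smallest adjusted p = 0.971), while 640 had an unadjusted p below 0.05 and chance alone would give 728.75. So genes that passed in one treatment alone are not shown to differ. PORB rose by 1.07 in the controls and had a log2 change of 0.38 in dexamethasone, where it did not pass (limma adjusted p = 0.172). AT1G23390 fell by 1.62 in the controls and had a log2 change of -0.29 in dexamethasone, with signals of 247 and 547 at 4 h and 479 and 427 at 24 h. The gap between treatments in AT1G23390 was -1.32 (SE 0.45) and did not pass.

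**Figure D5:**
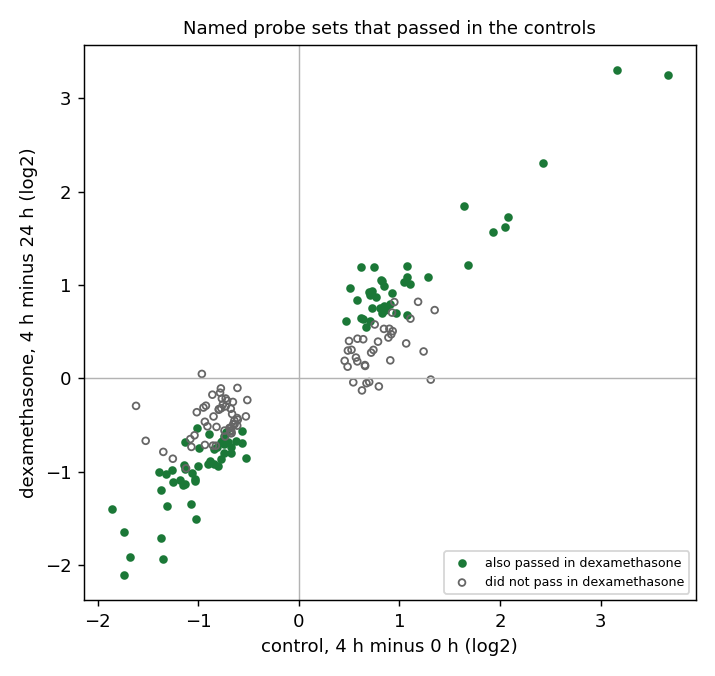
Log2 change in dexamethasone (4 h minus 24 h) against that in the controls (4 h minus 0 h) for the named probe sets that passed in the controls; filled points also passed in dexamethasone. The selection on the horizontal axis empties its middle, and most points lie in the quadrants of equal sign.

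The controls at 24 h, which share the arrays at 0 h with the main comparison, give the level a day later. Between 0 h and 24 h, 0 of 14575 probe sets passed in limma (0%), with 662 at an unadjusted p below 0.05 and a smallest adjusted p of 0.337. The median of the probe sets that rose by 4 h was 0.11 at 24 h against 0 h, and that of those that fell was -0.01. The log2 change was -0.31 for COR15B, 0.06 for PWD, -0.01 for AOR and 0.23 for LHCB4.2, none of which passed. PORB stood at 1020.1 and 1109 at 24 h, over both arrays at 0 h (792 and 844) and under both at 4 h (1669 and 1767).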

How the data were processed

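Total RNA from 10 samples, 2 per group, was hybridised to ATH1 arrays. The deposited signal intensities are linear. Per the submitters' processing notes, the authors used MAS5 and GCOS, for which no version is given in the sources used here. The trimmed mean of each array lay near 99, a scaling that was kept and that hides changes in total mRNA. Detection calls are lacking, and precision is limited by the number of arrays. Of 22746 probe sets that are not controls, 13436 were named through RefSeq TAIR10.1 (names only), 77 kept the platform name, 503 have several genes and 8730 none, apart from 64 control probe sets.

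Signals were transformed to log2(signal + 4.35), the constant being percentile 20 of all values, which understates the changes of weak probe sets. A probe set was tested if it exceeded percentile 40 of the array on 2 or more arrays (14575). Changes were tested two-sided with limma 3.58.1 in R 4.3.3 (eBayes with a trend), 5 group means over 10 arrays, 5 residual degrees of freedom and Benjamini-Hochberg adjustment over all probe sets kept, at 0.05. Python 3.11.15, pandas 2.3.3 and matplotlib 3.10.9 made the tables and figures. On simulated data for the control comparison, changes of 0.5, 1, 2 and 3 log2 units were recovered in 8%, 82%, 100% and 98% of 50 probe sets each, with 5 false calls among 14562. The simulated noise was independent for each probe set and array. It held no shift shared by many probe sets of an array, so these rates do not cover such shifts.

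The members, the 51 gene lists and the tests were chosen with earlier results of these data known, and 19 of the lists were written after the called genes had been seen. Lists are described by counts, with no set test. Of the 51 lists, 3 had no tested member and 30 had a member that passed. Each of the 19 written afterwards holds such a member, so a hit in them was fixed by how they were chosen. Named genes were the 15 largest rises and 15 largest falls that passed with no overlap, COR27, GI, and up to 4 list members that passed or, where fewer than 2 passed, up to 2 with the smallest p. Not every gene the rule took is named. Genes named as holding under all alternatives, and AAH and AT5G61670, were chosen after their values were seen. Replicate numbers did not pair the samples: same-numbered deviations correlated with r from -0.42 to 0.18. The alternatives were other constants, filters, normalization and variance models, a replicate block, subsets of the arrays and leaving out each array. Promoter sequence was not analysed here.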

Additional observations from a re-analysis of the deposited data

How the results depend on the processing

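The limits come mainly from 2 arrays per group. For the control change from 0 h to 4 h, leaving out single arrays gave 134 to 482 calls, 55 to 199 higher and 71 to 284 lower, against 383, 161 and 222; where a group was left with 1 array, its spread was taken from the other groups. All 4 values under 200 came from leaving out a compared array: 164 and 177 without replicate 1 and 2 at 0 h, and 134 and 136 at 4 h. Without the trend, 228 passed (92 higher, 136 lower). With only the 4 compared arrays, 574 passed, of which 336 were lower. Without both arrays that stood apart, an alternative chosen after seeing the data, 639 passed (269 higher, 370 lower). With the replicate block, 391 passed (164 higher, 227 lower); the numbers do not pair the samples. For dexamethasone, no trend gave 245, and single arrays left out gave 122 to 468. Control 24 h against 0 h gave 0 to 4 calls, and the difference between treatments 0 to 7, with single arrays left out. Of 59 named probe sets that passed, 18 kept the call in every alternative, 41 lost it in 187 of 1175 values, and none turned direction. Among genes that did not pass, the sign of RCA turned under quantile normalization (-0.21) and with arrays left out (-0.16 to 0.22), as did COR47 (-0.27 to 0.26) and LHCB4.1 (-0.16 to 0.11) with arrays left out. The cause was not tested.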
